A study of Mus musculus with 16 samples.

Results

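The tumours described here are insulinomas, pancreatic neuroendocrine tumours that arise from the insulin-making beta cells of the islets. They were profiled by sequencing of polyA RNA from RIP1Tag2 mice of 14 to 16 weeks on the C57Bl/6 background (B6) that had not been given MK801. The group was taken from the sample titles alone and holds 7 of the 16 libraries of the series, and no measured value entered the choice. In RIP1Tag2 mice the rat insulin promoter drives the SV40 T antigens in beta cells, so the tumours arise from cells that make insulin. The control mice were untreated or had received saline, and the labels do not say which library belongs to which. The other 9 libraries, also from RIP1Tag2 tumours of that age, are 4 controls of the C3HeB/Fe background (C3H) and 5 B6 tumours from mice injected with MK801, which blocks the NMDA receptor, at 1 mg/kg intraperitoneally each day for 3 days. They were used here to see whether genes that varied between the B6 controls varied in other tumours too. Levels of genes that stood apart in 1 B6 control library were also set against theirs. The labels do not state that each library is a separate mouse or a separate tumour, so the spread between libraries may be in part technical. No library of normal islets was used, so a lineage gene is described by its level and no loss from a normal state was measured. In bulk tumour RNA, fewer cells of a type and less RNA per cell cannot be told apart.

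Beta cells store insulin in dense-core granules, where the prohormone convertases cut proinsulin and the granins pack it with islet amyloid polypeptide. Glucose enters through Slc2a2, and its metabolism closes the potassium channel made of Kcnj11 and Abcc8, which opens calcium channels and releases the granules. This release uses much of the vesicle machinery of a synapse, so beta cells normally express many genes best known from neurons, while the repressor Rest, which keeps neuronal genes off in most tissues, is held low in them. A set of transcription factors, among them Pdx1, Nkx6-1, Mafa, Neurod1, Pax6 and Isl1, maintains the beta cell state.

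Estimated counts summed to 38615267 to 43846563 per B6 control library, and levels are given as counts per 1000000 counts of the library total (CPM). A gene was placed at the floor when it had at most 3 estimated counts in each of the 7 libraries, which is 0.0684 to 0.0777 CPM at these depths. By its mean over the 7 libraries, any other gene was called trace under 1 CPM, low from 1 to 10 CPM, moderate from 10 to 100 CPM and high from 100 CPM. Of 23224 genes in the table, 5390 (23.2%) were at the floor, 3654 were trace, 3770 low, 8101 moderate and 2309 high. CPM is not corrected for transcript length, so an order of genes by CPM is also given per kilobase of transcript. No 2 of the 7 libraries agreed within sampling noise (the lowest chi-square divided by its degrees of freedom was 116.6), so none was treated as a second copy of another; this does not show that they came from separate mice.

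By mean CPM the 2 insulin genes came first, and per kilobase of transcript Iapp lay between them, as given below. Ins2, the main mouse insulin gene, was at 8916 at the lowest, 33776 at the median and 49721 CPM at the highest, with a mean of 33970.4 ± 13719.5 CPM (SD, n = 7). Ins1, the second mouse insulin gene, was at 3429 at the lowest, 14409.9 at the median and 23899.5 CPM at the highest, with a mean of 13479.7 ± 7541 CPM (SD, n = 7). Together they took 1.23% of the counts in library 1 and 3.49% to 6.597% in the other 6. Library 1 therefore lay below all the others in both genes. The ratio of Ins2 to Ins1 ran from 1.65 in library 4 to 5.20 in library 6, so the share of the 2 insulin genes differed between tumours even where their sum was alike. Since the 2 transcripts are similar in sequence, part of this ratio depends on how the counting divided shared reads. Iapp, which encodes islet amyloid polypeptide, was at 3364 at the lowest, 13281 at the median and 16299 CPM at the highest, again lowest in library 1.

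The promoters of these hormone genes are shown because Neurod1, Pdx1 and their partners are known to act through such elements in the rat and mouse insulin promoters. The sequences are the 250 bases before the transcription start from RefSeq on GRCm38.p6, 5′ to 3′ in the direction of transcription, and capitals mark the E-box letters CATCTG searched on both strands. In Ins1 (chr19:52264047-52264296, plus strand) the match starts at position -84 from the start site, and in Iapp (chr6:142298175-142298424, plus strand) at position -111.
Ins1: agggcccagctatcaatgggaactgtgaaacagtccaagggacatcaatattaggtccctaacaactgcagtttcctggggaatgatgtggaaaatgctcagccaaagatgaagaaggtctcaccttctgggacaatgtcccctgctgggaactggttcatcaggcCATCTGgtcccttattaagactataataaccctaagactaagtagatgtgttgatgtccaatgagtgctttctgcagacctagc
Iapp: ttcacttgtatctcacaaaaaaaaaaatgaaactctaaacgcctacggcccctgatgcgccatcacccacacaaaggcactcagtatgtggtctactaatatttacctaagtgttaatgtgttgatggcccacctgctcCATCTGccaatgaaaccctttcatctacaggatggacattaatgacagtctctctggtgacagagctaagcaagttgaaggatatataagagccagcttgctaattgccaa
These letters occurred in 14.5% of 27025 mouse promoters cut to the same window, or 9.45% of the 8336 promoters of genes with a mean of at least 10 CPM. The AT-rich core TAAT, which homeodomain factors such as Pdx1 can bind, was present in both promoters and in 55.3% of all. A match of letters is not a measured binding site.

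Granule cargo made up the next layer of the transcriptome. The 10 highest genes of each library held 10.2 ± 2.63% of its counts (SD, n = 7), the 50 highest 17.1 ± 2.46% and the 500 highest 38.9 ± 2.13%. Of the 20 granule genes listed, 19 were high and 1, Vgf, was low at a mean of 3.16 CPM; 2 of the 19, Cartpt and Pcsk1n, had a high mean through 1 library each, as described below. Chga, the acidic granin that drives granule formation, was at 3956 at the lowest, 5508 at the median and 6979 CPM at the highest. Pcsk2, the convertase that removes the proinsulin C-peptide together with Pcsk1, was at 3832 at the lowest, 4447 at the median and 6515 CPM at the highest. Cpe, the carboxypeptidase that trims the cut ends, was at 1936 at the lowest, 3056 at the median and 3465 CPM at the highest. These 3 genes stayed within a factor of 2 across the 7 tumours, and the summed granule list took 3.67% to 4.61% of the counts. Without Cartpt it took 3.14% in library 1, the lowest share, and 3.67% to 4.61% in the other 6. The granins Scg2 (2181 to 7238 CPM) and Chgb (2209.9 to 7321 CPM) ranged wider, with Chgb highest in library 1. In library 1 Chgb reached 7321 CPM, and the next library had 3535 CPM.

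**Figure D1:**
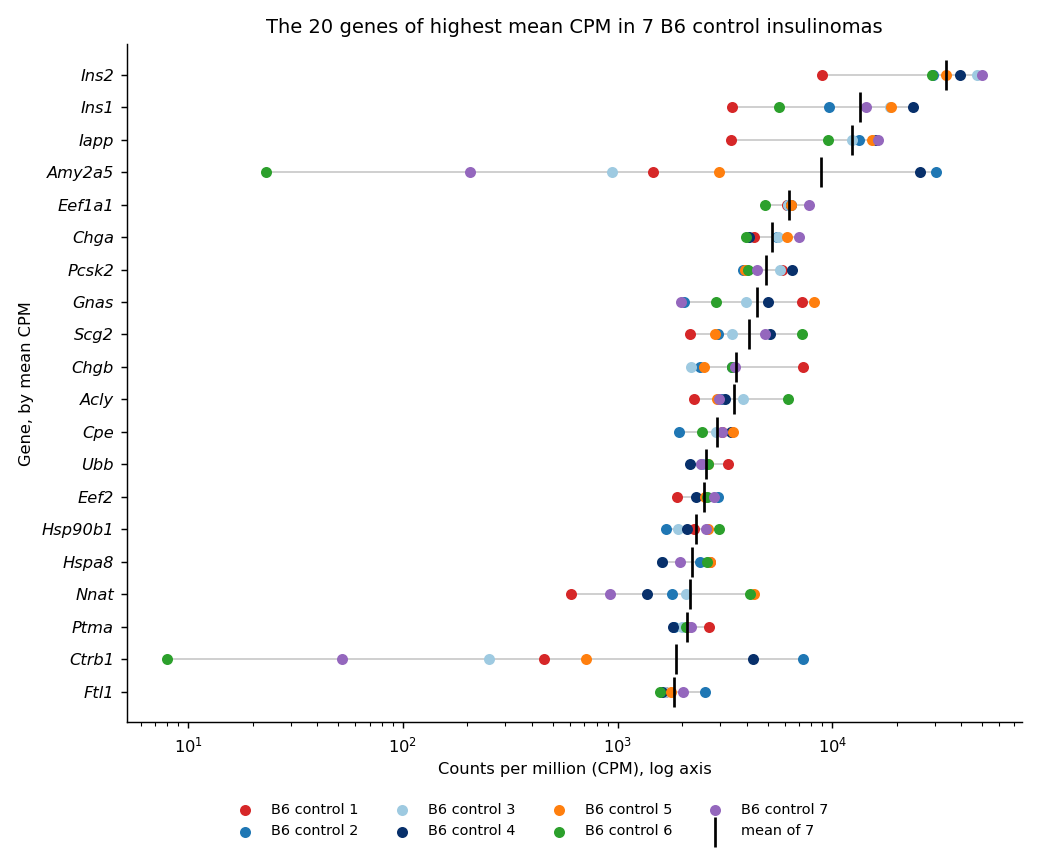
The 20 genes of highest mean level, one per line, with CPM on a log axis; each coloured point is 1 of the 7 B6 control libraries, the grey line spans them and the black tick is the mean. Hormone, granule and housekeeping genes fill most lines, insulin lies lowest in library 1, and the points of Amy2a5 and Ctrb1 spread over 22.998 to 30550.5 CPM and over 7.99 to 7316 CPM.

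The plot of the most abundant genes shows 4 kinds of transcript among the 20. Besides the 2 insulin genes, Iapp and the granule genes Chga, Pcsk2, Scg2, Chgb and Cpe, there were genes of general upkeep. Eef1a1 and Eef2, elongation factors of translation, were at 6317 ± 854 and 2533 ± 351 CPM (SD, n = 7), Ubb, a ubiquitin gene, at 2587 ± 342 CPM, and Ptma, a chromatin-associated protein, at 2102 ± 288 CPM. Hsp90b1, the chaperone of the endoplasmic reticulum, was at 2308 ± 452 CPM, Hspa8, a cytosolic heat shock cognate chaperone, at 2228 ± 494 CPM, and Ftl1, the ferritin light chain, at 1841 ± 351 CPM. Acly, which makes the acetyl-CoA for lipid synthesis, was at 2270.4 at the lowest, 3031 at the median and 6235 CPM at the highest, with library 6 standing above the rest. The third kind was genes of imprinted loci, where some or all transcripts come from 1 parental copy. Gnas, whose products include the stimulatory G protein alpha subunit, was at 4473 ± 2480.2 CPM, and Nnat, which encodes neuronatin, at 2180.2 ± 1489 CPM. The counts are per gene, so the transcripts of the Gnas locus were not told apart, and parental origin was not measured. The fourth was pancreatic digestive enzymes, Amy2a5 and Ctrb1, whose means rest on 2 libraries. Ranked per kilobase of transcript, 15 of the 20 remained among the first 20. The 5 that entered were Resp18 at 2158, Rpl41 at 1586, Eif4g2 at 1560.5, Rpl10 at 1507 and Tpt1 at 1437 CPM per kilobase. On this scale the first 3 were Ins2 at 70772, Iapp at 14693 and Ins1 at 12693 CPM per kilobase.

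Most transcription factors of the endocrine lineage were present. Of 24 listed, 18 (75%, against 44.8% of all genes) had a mean of at least 10 CPM, 7 high and 11 moderate. Another 5 were low and 1 was trace. Of the 18, 2 reached that mean only through 1 library each. Pax6, needed for islet hormone genes, was at 329.7 at the lowest, 582 at the median and 868 CPM at the highest. Isl1, a LIM-homeodomain factor of all islet cells, was at 293 at the lowest, 360.0 at the median and 604 CPM at the highest, and Rfx6, which directs islet cell formation, at 198 at the lowest, 347 at the median and 455 CPM at the highest. Neurod1, a basic helix-loop-helix activator of insulin, had the smallest spread of the list relative to genes of its level, 239 to 344 CPM with a mean of 287 ± 42.7 CPM (SD, n = 7). Pdx1, Nkx6-1 and Mafa, known for their part in the mature beta cell, averaged 23.6, 2.41 and 2.24 CPM per kilobase of transcript, against 215 for Pax6, 154 for Isl1, 97.2 for Rfx6 and 105 for Neurod1. Pdx1 had 8.20 CPM in library 1, 28.4 CPM in library 7 and 57.8, 59.5, 43.7, 104 and 55.4 CPM in libraries 2 to 6. Nkx6-1 had 29.3 CPM in library 5, 0.734 CPM in library 1 and 2.69 to 6.19 CPM in the other 5. Mafa, the late activator of insulin in adult beta cells, had 38.2 CPM in library 5, 3.21 CPM in library 2 and at most 0.603 CPM in each of the other 5. Its mean without library 5 was 0.790 CPM. Foxa1 was the factor at trace level, at 0 to 0.299 CPM, while its relative Foxa2 was at 10.5 to 107 CPM.

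Most genes of glucose sensing were expressed in the tumours. Of 26 genes listed, 23 (88.5%, against 44.8% of all genes) had a mean of at least 10 CPM, 9 of them high. The other 3 were low. Without library 1 the count at 10 CPM or more was 21, since Hk1 and Slc16a1 reached 10 CPM only through that library. The list also holds genes that beta cells normally keep low. G6pc2, the islet glucose-6-phosphatase, was at 349 at the lowest, 1150.0 at the median and 2148 CPM at the highest. Slc2a2, the glucose transporter of mouse beta cells, was at 44.1 at the lowest, 144 at the median and 288 CPM at the highest. Abcc8 was at 243 to 829.7 CPM, and Kcnj11, its partner in the potassium channel, at 39.2 to 254 CPM. Ucn3, a peptide that mature mouse beta cells release, was at 113 at the lowest, 426 at the median and 592 CPM at the highest. Libraries 1 and 6 were the lowest for 9 genes each of the 23, and library 5 held the lowest Slc2a2. How many of all genes were lowest in libraries 1 and 6 is not given. Among the listed genes, 4 (Ldha, Slc16a1, Hk2 and Rest) were set down as ones that adult beta cells normally keep low. Among these, Ldha, lactate dehydrogenase A, was at 29.0 to 82.6 CPM, Slc16a1, the transporter of lactate and pyruvate, had 76.5 CPM in library 1 and at most 12.1 CPM elsewhere, and Hk2, a high-affinity hexokinase, was at 2.56 to 4.93 CPM. Rest, the repressor of neuronal genes, was at 1.13 to 2.44 CPM, and per kilobase of transcript it averaged 0.270 CPM.

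Transcripts of other islet hormones were at uneven levels. Gcg, glucagon of alpha cells, was at 12.8 at the lowest, 69.5 at the median and 321 CPM at the highest, with library 6 above the rest. Ppy, pancreatic polypeptide, fell into a pair of ranges, 55.5, 52.3 and 56.2 CPM in libraries 2, 4 and 7 and 2.02 to 17.6 CPM in the other 4. Sst, somatostatin of delta cells, was at 0.301 to 13.0 CPM, and Pyy, peptide YY, at 0.482 to 4.62 CPM. Ghrl, ghrelin, was at 0 to 0.205 CPM, with no count in library 6. Ttr and Rbp4, which islet alpha cells also express, had means of 666 and 129 CPM, mainly from library 1, without which they averaged 128 and 52.2 CPM.

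Progenitor genes split in their levels. Of 18 genes linked to endocrine progenitors or dedifferentiation, 5 (27.8%, against 44.8% of all genes) had a mean of at least 10 CPM. Of these 5, 2 reached that mean only through 1 library each. Another 4 were low, 7 trace and 2 (11.1%, against 23.2% of all genes) at the floor. Neurog3, the trigger of endocrine fate, was at 0 at the lowest, 0.163 at the median and 2.23 CPM at the highest, the highest value being in library 2. Sox9, a factor of progenitors and ducts, had 3.41 CPM in library 1 and at most 1.09 CPM elsewhere. Onecut1 and Pou5f1 were at the floor, and Aldh1a3, reported from failing mouse beta cells, was at 0.942 to 8.28 CPM. The surface proteins Cd24a and Cd44 were high, at 63.0 to 867 and 15.3 to 281 CPM, with Cd24a far above the rest in library 1. All 23 mitosis genes had a mean of at least 10 CPM, against 44.8% of all genes, and 13 were high. Mki67, the proliferation antigen, was at 693 at the lowest, 985 at the median and 1518 CPM at the highest, and Top2a, the topoisomerase of dividing cells, at 451 at the lowest, 712 at the median and 1265 CPM at the highest. Library 2 was the lowest for 20 of the 23, and library 6 the highest for 12. The same shares over all genes are not given, so these counts describe the list only.

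Markers of the cells that surround and enter the tumours were measured beside these. Pecam1 and Cdh5, which define endothelium, were at 82.7 to 191 and 42.7 to 80.7 CPM. Sparc, a matrix protein of stroma and vessels, was at 634 to 1327 CPM, Col1a1 at 19.5 to 155 CPM and Dcn, decorin of fibroblasts, at 25.9 to 287 CPM. Csf1r and C1qa of macrophages were at 64.2 to 149 and 159.8 to 278 CPM, and the summed macrophage and myeloid list, 19 genes found, ran from 1233 to 2225 CPM. Lymphocyte markers were scarce: Cd3e of T cells was at 0.207 to 0.912 CPM and Cd79a of B cells at 0.734 to 5.90 CPM. Of 18 lymphocyte genes, 1, Cd4, had a mean of at least 10 CPM (5.56%, against 44.8% of all genes). Of 15 ductal genes, 9 (60%, against 44.8% of all genes) had a mean of at least 10 CPM, 3 of them high. Of the 9, 2 reached that mean only through 1 library each. The ductal list summed to 600 to 1062 CPM. Krt7, a keratin, was at 121 to 546 CPM, whereas the duct markers Krt19 and Cftr were at 2.07 to 9.85 and 0.184 to 2.96 CPM. Of 28 genes that mark other tissues, 8 (28.6%, against 23.2% of all genes) were at the floor and 11 were trace. The 2 with a mean of at least 10 CPM, Alb and Serpina1c, are described with library 1. The part that these cells play in the levels above was not tested.

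**Figure D2:**
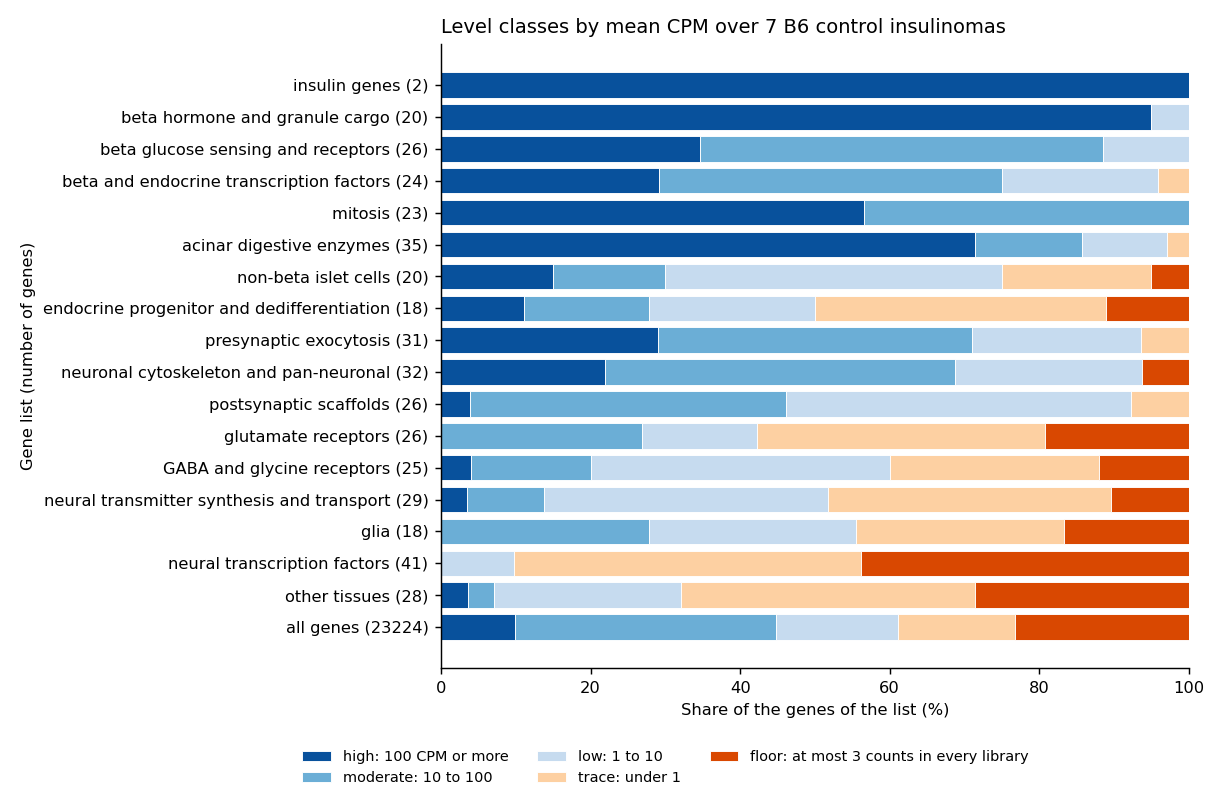
Each bar splits the genes of a list, with its number of genes, into the 5 level classes by mean CPM over the 7 B6 controls, as a percentage of the list; the last bar holds all 23224 genes. Granule, glucose sensing and mitosis lists are nearly all blue (10 CPM or more), presynaptic genes 71.0% so, and neural transcription factors 43.9% at the floor and 0% at 10 CPM or more.

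Neural genes covered all 5 level classes, as the plot of these classes shows. Over 8 neural lists holding 228 genes, 34 (14.9%) were at the floor, against 23.2% of all genes in the table. Another 56 were trace, 61 low, 58 moderate and 19 high, so 77 (33.8%) had a mean of at least 10 CPM, against 44.8% of all genes, and 90 (39.5%) less than 1 CPM, against 38.9% of all genes. The lists ran from nearly full to nearly empty. These lists were drawn up with earlier results of these data known, so their counts describe them and test nothing.

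Vesicle release genes stood at the upper end. Of 31 presynaptic genes, 22 (71.0%, against 44.8% of all genes) had a mean of at least 10 CPM, 9 of them high. Of the 22, 2 reached that mean only through 1 library each, and none of the 31 was at the floor. Syt13, an atypical synaptotagmin that islets express, was at 427 at the lowest, 812 at the median and 1189 CPM at the highest. Cplx2, complexin 2, which holds primed vesicles, was at 149 at the lowest, 560.0 at the median and 830.2 CPM at the highest. Syp, synaptophysin of vesicle membranes, was at 170.1 to 431 CPM, and Snap25, the plasma membrane SNARE, at 117 to 389 CPM. At the other end of this list Rims1 was at 0 to 0.362 CPM and Cplx3, a retinal complexin, at 0.0228 to 0.261 CPM, while Rims2, an active zone protein that acts in beta cells, was at 37.8 to 91.3 CPM. Of 32 cytoskeletal and pan-neuronal genes, 22 (68.8%, against 44.8% of all genes) had a mean of at least 10 CPM. Of these 22, 3 reached that mean only through 1 library each. Among the 22 were Bex2 at 169 to 362 CPM and Ncam1, a neural adhesion molecule, at 107 to 423 CPM. Uchl1, a ubiquitin hydrolase, was at 89.9 to 217 CPM and Tubb3, neuronal beta-tubulin, at 51.7 to 318 CPM. Rbfox3, the NeuN antigen of mature neurons, was low at 0.184 to 5.29 CPM, and the interneuron calcium binders Pvalb and Calb2 were at the floor, with 0 and at most 1 estimated counts in any library.

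Transmitter genes were selective. Of 29 genes for synthesis and transport, 4 (13.8%, against 44.8% of all genes) reached a mean of 10 CPM, 1 of them only through library 6. Ddc, which forms dopamine and serotonin, was at 498 at the lowest, 747 at the median and 1022 CPM at the highest. Th, tyrosine hydroxylase, was at 14.5 to 52.1 CPM, and the GABA-making enzymes Gad1 and Gad2 at 12.4 to 141 and 1.01 to 80.3 CPM. Dbh and Pnmt, which turn dopamine into noradrenaline and adrenaline, had at most 1 estimated count in any library, and the glycine transporter Slc6a5 at most 2. The genes that load glutamate into vesicles, Slc17a6, Slc17a7 and Slc17a8, were at 0.344 to 12.2, 0.0456 to 3.49 and 0.279 to 0.830 CPM. All 3 therefore lay below 1 CPM in some or all of the libraries, and Slc17a6 was highest in library 3.

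Receptor genes for glutamate were few and uneven. Of 26, 7 (26.9%, against 44.8% of all genes) had a mean of at least 10 CPM, 4 were low and 10 trace. The other 5 (19.2%, against 23.2% of all genes) were at the floor: Grin3a, Grm3, Grm4, Grm5 and Grm6. Of the 7, 2 reached a mean of 10 CPM only through 1 library each. The NMDA receptor, the target of MK801, needs the obligatory subunit Grin1 and a Grin2 partner. Grin1 was at 4.01 at the lowest, 19.6 at the median and 97.0 CPM at the highest, highest in library 5. Grin2c was at 0.138 at the lowest, 13.0 at the median and 57.6 CPM at the highest, again highest in library 5. Grin2a had 2.70 CPM in library 1 and at most 0.0696 CPM elsewhere, Grin2b was at 0.271 to 1.03 CPM and Grin2d at 0.0947 to 1.47 CPM. Per kilobase of transcript the means were 5.94 CPM for Grin1 and 3.76 CPM for Grin2c, against 0.0364, 0.0814 and 0.0715 CPM for Grin2b, Grin2a and Grin2d. So Grin2c was the most abundant Grin2 transcript per length in the mean, although in library 6 it was at 0.138 CPM, near the floor. Gria2, the AMPA receptor subunit that limits calcium entry, had 442 CPM in library 1 and 11.2 to 56.9 CPM in the other 6. Of 25 receptor genes for GABA and glycine, 5 (20%, against 44.8% of all genes) had a mean of at least 10 CPM. Among the 5 was Glrb, the glycine receptor beta subunit, at 55.1 to 106 CPM, while Gabra6, Gabrg3 and Glra2 were at the floor.

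Of 26 postsynaptic scaffold genes, 12 (46.2%, against 44.8% of all genes) had a mean of at least 10 CPM and none was at the floor. Dlgap1 encodes GKAP, the scaffold named in the study's title, which ties the NMDA receptor complex to the Shank proteins. It was at 23.9 at the lowest, 28.6 at the median and 37.9 CPM at the highest, with a mean of 29.6 ± 5.28 CPM (SD, n = 7), the steadiest of the 12. Camk2b, a subunit of the calcium-dependent kinase of synapses, was at 127 to 287 CPM, Shank1 at 0.0228 to 2.71 CPM and Nos1, neuronal nitric oxide synthase, at 0.115 to 1.92 CPM. Glial genes were mixed: Mbp, a myelin gene whose locus also gives transcripts in other cells, was at 40.8 to 114 CPM, while Gfap of astrocytes was at 0 to 0.129 CPM, Sox10 of glial lineages at 0 to 0.0919 CPM, and Mog, Mobp and Olig1 at the floor.

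Among the neural lists, that of neural transcription factors had the largest share of genes at the floor. Of its 41 genes, 18 (43.9%, against 23.2% of all genes) were at the floor, 19 were trace and 4 were low. None had a mean of at least 10 CPM. Pax6, Isl1 and Neurod1, with means of 600.5, 388 and 287 CPM, were counted with the endocrine factors. Tfap2b, Nhlh2 and Pou3f4, described below with library 1, were not on this list either, so these shares describe the list only. Neurog1, Otx2, Pou4f2, En2, Olig2 and Sox1 had 0 counts in all 7 libraries, and Neurod2, Neurog2, Emx1, Emx2, Phox2a, Sox2 and Nr2e1 at most 2 in any library. The highest on the list were Lhx1, a LIM-homeodomain factor, at 3.83 to 11.3 CPM, and Neurod6. Neurod6 had 22.8 CPM in library 1 and at most 0.0460 CPM in the other 6. Both genes therefore passed 10 CPM in at least 1 library, though not in the mean. A count of 0 limits the level to 3 counts of the library, the floor given above.

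Spread between tumours was read at matched level, since the SD of a log level depends on the level. For each gene the SD of log2(CPM + 0.5) over the 7 libraries was divided by the running median SD of the genes nearest in mean log2 level, 150 on each side. Among the 10410 genes with a mean of at least 10 CPM, 1502 (14.4%) had a ratio of 2 or more and 902 had 0.5 or less. The running median itself lay between 0.30 and 1.07 and was 0.36 for the median gene. The 100 most variable genes had ratios down to 4.28, with 4.26 for the next gene, and the 100 least variable ones up to 0.2895, with 0.2905 for the next.

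**Figure D3:**
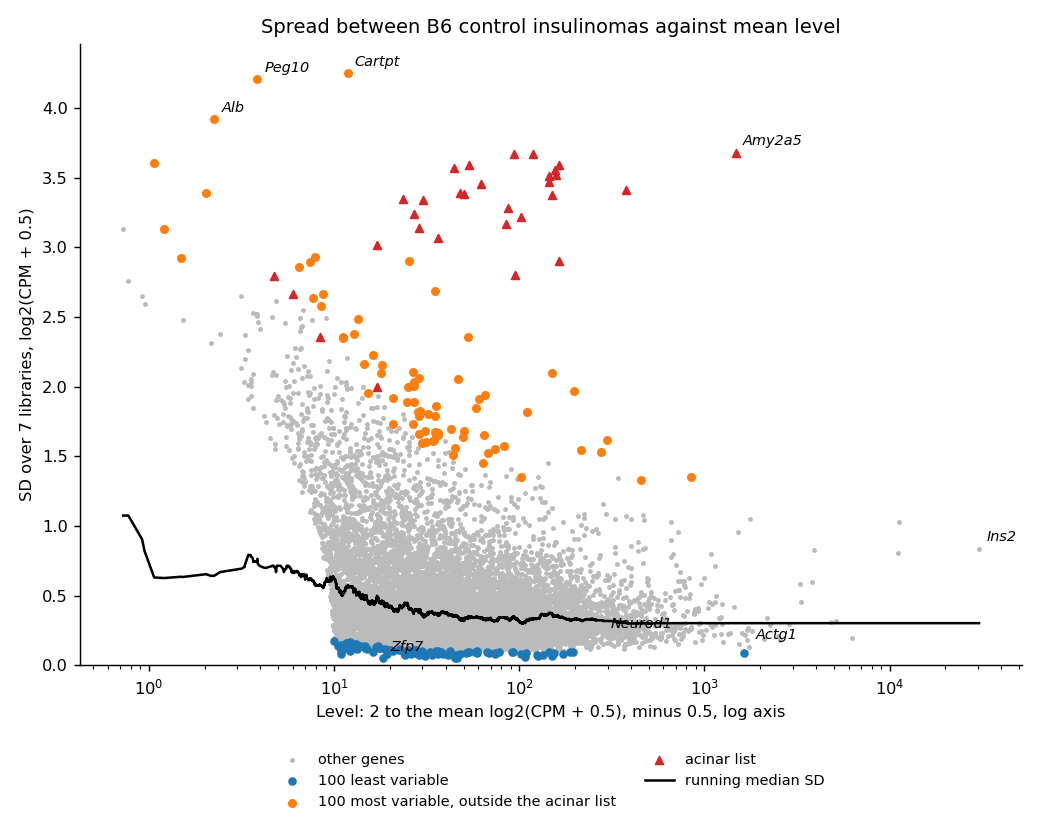
SD over the 7 B6 controls of log2(CPM + 0.5) against the level of each gene (2 to the mean log2, minus 0.5, log axis) for the 10410 genes with a mean of at least 10 CPM; the black line is the running median. Acinar genes (red triangles) lie far above the line, with Cartpt, Peg10 and Alb above them, and the 100 least variable genes (blue) lie along the lower edge.

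Digestive enzymes of acinar cells, the exocrine cells of the pancreas, were the most variable transcripts. All of the 25 most variable genes were on the acinar list of 35, and 30 of 30 list genes with a mean of at least 10 CPM had a ratio of 2 or more. Amy2a5, pancreatic amylase, had 30550.5 and 25714 CPM in libraries 2 and 4, 1457, 942, 2971 and 206 CPM in libraries 1, 3, 5 and 7, and 22.998 CPM in library 6. Ctrb1, a chymotrypsinogen, was at 7.99 at the lowest, 455 at the median and 7316 CPM at the highest, and Pnlip, pancreatic lipase, at 1.68 at the lowest, 84.2 at the median and 2544 CPM at the highest. The summed list took 7.43% of the counts in library 2 and 5.88% in library 4, 0.0583% to 0.776% in libraries 1, 3, 5 and 7, and 0.0085% in library 6. All 30 genes were highest in library 2 and lowest in library 6. The amylase, trypsin and elastase genes are families of near copies, so the split of reads within a family is uncertain, and the sum is the firmer value.

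The promoters of 3 of the acinar genes are shown because the genes moved together and because the exocrine factor PTF1 is known to bind an E-box paired with a TTTCCC box. They are the 3 of highest mean CPM among 6 list genes whose promoter holds both letter strings, again 250 bases before the start from RefSeq on GRCm38.p6. Capitals mark CACCTG and TTTCCC on either strand (CAGGTG and GGGAAA when read from the other), at any distance within the window, in Cela2a (chr4:141826006-141826255, minus strand), Prss2 (chr6:41521526-41521775, plus strand) and Cel (chr2:28563404-28563653, minus strand).
Cela2a: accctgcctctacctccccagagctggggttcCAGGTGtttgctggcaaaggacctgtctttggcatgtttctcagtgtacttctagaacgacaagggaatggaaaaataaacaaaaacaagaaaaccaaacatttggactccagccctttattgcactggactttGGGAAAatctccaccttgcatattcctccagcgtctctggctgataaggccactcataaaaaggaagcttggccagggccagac
Prss2: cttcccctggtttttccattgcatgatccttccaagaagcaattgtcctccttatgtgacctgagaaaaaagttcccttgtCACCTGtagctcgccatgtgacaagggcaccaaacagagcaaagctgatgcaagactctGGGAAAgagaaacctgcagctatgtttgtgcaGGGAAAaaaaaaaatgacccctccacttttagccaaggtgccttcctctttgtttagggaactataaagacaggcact
Cel: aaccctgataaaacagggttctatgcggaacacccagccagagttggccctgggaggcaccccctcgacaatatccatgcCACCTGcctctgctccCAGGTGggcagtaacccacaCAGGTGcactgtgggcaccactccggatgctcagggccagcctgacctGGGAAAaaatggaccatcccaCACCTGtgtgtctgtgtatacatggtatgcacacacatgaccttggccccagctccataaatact
The nearest pair of the letter strings started 134 bases apart in Cela2a, 59 in Prss2 and 21 in Cel. Whether any of these pairs is a PTF1 site was not tested. CACCTG was found in 16 of the 27 acinar promoters in the table (59.3%) and in 17.1% of all 27025. TTTCCC was found in 33.3% of the acinar promoters and 21.9% of all, and both together in 22.2% and 3.63%. Cela2a, an elastase, averaged 978 ± 1477 CPM, Prss2, a trypsinogen, 779 ± 1128 CPM and Cel, a lipase for esters of cholesterol, 609.7 ± 936 CPM (SD, n = 7), each SD being larger than its mean.

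Outside the acinar list, 74 of the 100 most variable genes remained, and 2 libraries held most of their high values. Library 5 was highest for 35 of the 74 and library 1 for 21, while library 6 was lowest for 37 and library 7 for 14. The same shares over all genes are not given. A gene was set down as apart in a library when it had at least 10 CPM there and 10 times the level of the next library, or, for low values, when the next library had at least 10 CPM and 10 times its level. Library 1 was apart upward for 98 genes, library 5 for 27 and library 6 for 2, and library 6 was apart downward for 7; libraries 2, 3, 4 and 7 had none. This definition and the genes named from it were chosen after the values were seen.

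Library 1 combined low insulin with higher levels of several hormones and secreted proteins than the other tumours. Cartpt, the precursor of the CART peptide, had 5829.9 CPM in library 1 and 1.04 to 20.6 CPM in the other 6. Ttr, transthyretin, had 3892 CPM in library 1 and 69.1 to 202 CPM in the others. Sct, secretin, had 415 CPM in library 1 and at most 8.95 CPM in the others. Alb, serum albumin, had 1249.8 CPM in library 1 and at most 1.38 CPM in the others. Gpx3, a secreted glutathione peroxidase, had 1146 CPM in library 1 against 22.4 to 51.7 CPM. Of 19 secreted proteins of hepatocytes, 9 had a mean of at least 10 CPM and all 9 were highest in library 1, but 5 of the 9 reached that mean only through library 1, which fixed their place. The other 4 included Trf, transferrin, at 589 CPM against at most 86.8 CPM. Some other products of hepatocytes had at most 1.37 CPM in library 1. Fga and Fgg, 2 fibrinogen chains, were at the floor, and Fgb had 0.0711 CPM in library 1, Apob 1.37 CPM and Ahsg 0.758 CPM. Apoa1, by contrast, had 19.1 CPM in library 1 and at most 0.436 CPM in the others. The Serpina1 genes, alpha-1-antitrypsin, are near copies; Serpina1a had 343 CPM in library 1 and at most 10.7 CPM elsewhere. Developmental transcription factors were high there too, Tfap2b at 166 CPM against at most 0.115 CPM, Nhlh2 at 92.2 CPM against at most 0.460 CPM and Pou3f4 at 44.95 CPM against at most 0.0684 CPM. Library 1 was the highest for 12 of the 16 macrophage and myeloid genes with a mean of at least 10 CPM. Of the 16, 1 reached that mean only through library 1. How many of all genes were highest in library 1 is not given. The list sum was 2225 CPM there against 1233 to 1778 CPM in the others. Their spread was not unusual, since 1 of the 16 (6.25%) had a ratio of 2 or more, against 14.4% of all genes. The part of other cells in the values of library 1 was not tested.

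The difference held against the rest of the series. Of the 98 genes, 97 were higher in library 1 than in any of the other 15 libraries, and 68 were at least 10 times as high as in any of them. Cartpt reached at most 4.22 CPM in the 4 C3H controls and 20.7 CPM in the 5 MK801 libraries, and Alb at most 3.03 and 8.45 CPM there. The 98 genes were selected in library 1, so these counts describe that library and give no test.

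**Figure D4:**
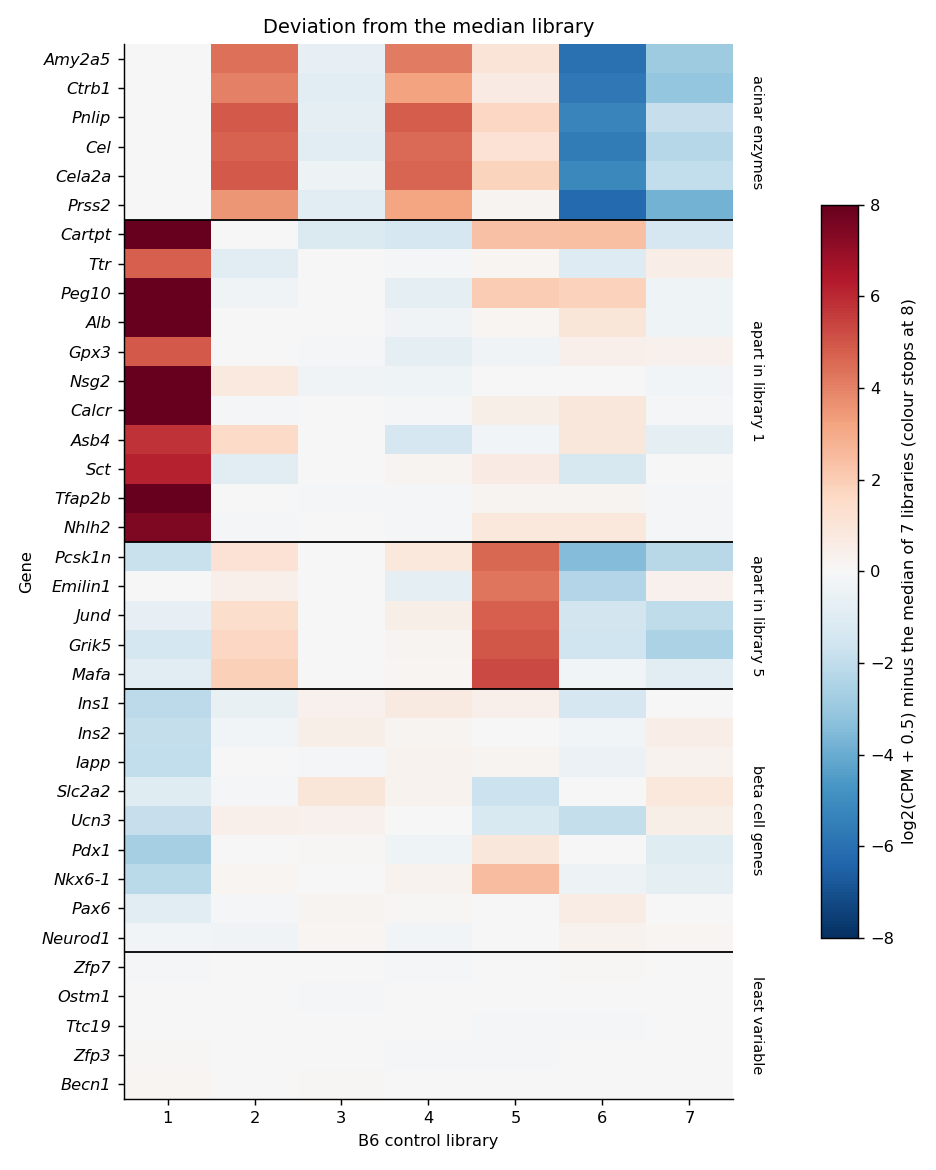
Each cell is the log2(CPM + 0.5) of a gene in 1 B6 control library minus the median of the 7, red above and blue below, for acinar enzymes, genes apart in library 1, genes apart in library 5, beta cell genes and least variable genes. Acinar rows are red in libraries 2 and 4 and blue in libraries 6 and 7, the second block is red in library 1, the third in library 5, and the last block is nearly white throughout.

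Imprinted genes took part in the contrast between libraries. Of 30 imprinted genes, a list drawn up after the values were seen, 24 had a mean of at least 10 CPM, 16 of these (66.7%, against 14.4% of all genes) had a ratio of 2 or more, and 11 were highest in library 1. Of the 11, 5 (Peg10, Calcr, Asb4, Sgce and Mest) reached that mean only through library 1, so their place was fixed by the minimum. Peg10, a paternally expressed gene derived from a retrotransposon, had 2571 CPM in library 1 and 0.162 to 4.16 CPM in the other 6. In gene order along mouse chromosome 6, Sgce, its neighbour, had 91.1 CPM in library 1 and at most 8.83 CPM in the others. Asb4 had 404 CPM against at most 20.8 CPM, Calcr, the calcitonin receptor gene, 439 CPM against at most 0.528 CPM, and Ppp1r9a 216 CPM against at most 86.8 CPM. Casd1 and Pdk4 in the same stretch were also above the other 6 libraries. Genes lying between them were not: Bet1 had 46.5 CPM in library 1 and 48.1 to 94.6 CPM in the others, Col1a2 239 CPM against 99.9 to 259.9 CPM and Pon2 35.1 CPM against 11.9 to 62.8 CPM. Other imprinted loci went another way, since Igf2 had 16.6 CPM in library 1 and 1242 CPM in library 5, and Dlk1 24.0 CPM in library 1, 248 CPM in library 5 and 3.81 CPM in library 7. Peg3, a zinc finger gene, had 393 CPM in library 5 and 1062 to 2654 CPM in the other 6. Without library 1, 11 of the 19 imprinted genes still at 10 CPM had a ratio of 2 or more (57.9%), against 15.4% of all genes.

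**Figure D5:**
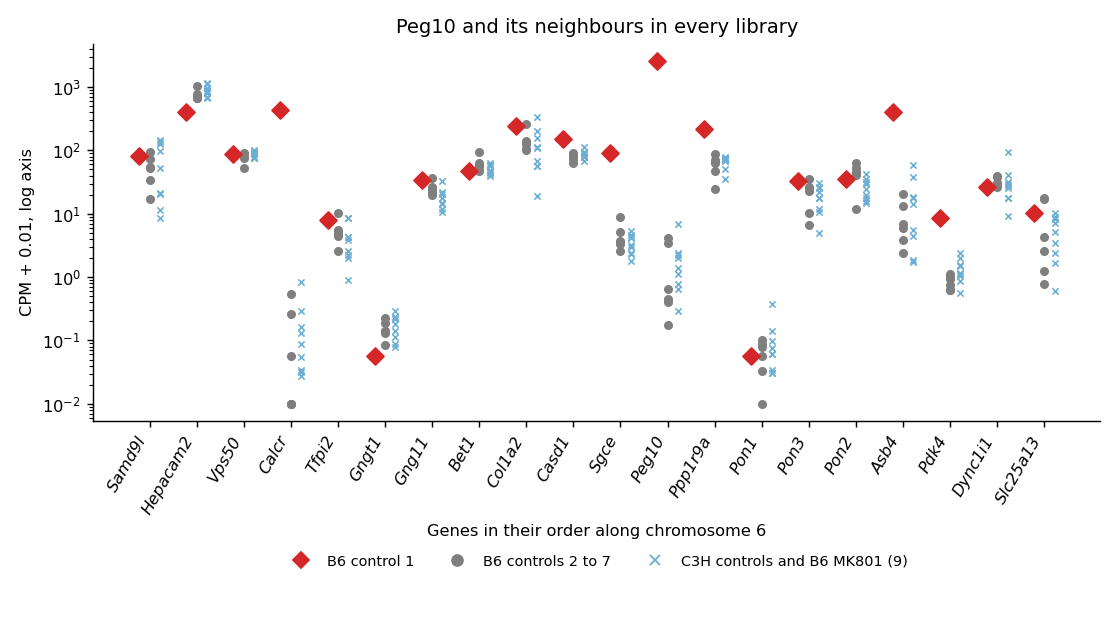
CPM + 0.01 on a log axis for Peg10 and genes around it in their order along chromosome 6, with library 1 as red diamonds, the other 6 B6 controls as grey points and the 9 other libraries as blue crosses. Calcr, Sgce, Peg10, Ppp1r9a, Asb4, Pdk4 and Casd1 stand above every other library in library 1, while the genes between them lie within or below the range of the other B6 controls.

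Library 5 differed in another set of genes. Pcsk1n, which encodes the granule protein proSAAS, had 943 CPM in library 5 and 3.03 to 87.1 CPM in the others. Emilin1, a matrix glycoprotein, had 195 CPM against at most 12.9 CPM, and Jund, an AP-1 subunit, 144 CPM against at most 13.2 CPM. Insm1 and Nkx2-2, endocrine factors, had 312 and 247 CPM in library 5 and at most 54.5 and 50.7 CPM elsewhere. The transcripts of the 27 genes apart in library 5 had a median GC content of 63.4%, against 49.8% for all genes with a mean of at least 10 CPM and 50.4% for the 98 genes of library 1. Across genes, which are not independent, a library's deviation from the mean correlated with GC content at a Spearman rho of 0.65 in library 5, 0.40 in library 2, -0.53 in library 7, -0.41 in library 6 and -0.37 in library 1. The part that base composition plays in the values of library 5, Mafa, Nkx6-1, Grin1 and Grin2c included, was not tested. Of the 27 genes, 24 were higher there than in all other 15 libraries, but 1 was 10 times as high.

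Beta cell function genes often had a spread above that of other genes at their level. Of the 23 glucose sensing genes with at least 10 CPM, 19 (82.6%) had a ratio of 2 or more, against 14.4% of all genes. Without library 1 it was 15 of 21, without library 5 it was 21 of 23 and without library 6 it was 18 of 23. With Ldha, Slc16a1, Hk2 and Rest left out of the list it was 18 of 21, and Hk1, at 10 CPM only through library 1, stayed in. Of the 18 endocrine transcription factors, 8 (44.4%) had such a ratio, led by Mlxipl, the carbohydrate response factor, at 40.2 to 863 CPM. But 2 of the 18 reached 10 CPM only through 1 library each, and without library 5 it was 7 of 17. Of 19 granule genes 8 had such a ratio, or 5 of 18 without library 1. All 7 glutamate receptor genes with at least 10 CPM did, from Gria3 at a ratio of 2.27 to Gria2 at 4.70, but 2 of them reached that level only through their highest library, and without library 1 it was 5 of 6. By contrast none of the 23 mitosis genes did, and their median ratio was 1.32. Nor did the scaffold Dlgap1, at a ratio of 0.624, or Neurod1, at 0.674.

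The 20 least variable genes included regulators of autophagy, DNA repair and mitochondria. Zfp7, a zinc finger gene, had a ratio of 0.119 and was at 17.6 to 19.5 CPM. Ostm1, a lysosomal membrane protein, was at 42.7 to 47.5 CPM, and Ttc19, an assembly factor of respiratory complex III, at 42.6 to 47.2 CPM. Becn1, the autophagy regulator beclin 1, was at 145 to 165 CPM, Fancc of the Fanconi DNA repair pathway at 18.1 to 21.6 CPM and Tk2, mitochondrial thymidine kinase, at 28.8 to 33.3 CPM. Chmp1a, of the ESCRT machinery, was at 103 to 116 CPM, Idh3g, a subunit of mitochondrial isocitrate dehydrogenase, at 116 to 132 CPM and Ddx24, an RNA helicase, at 124 to 143 CPM. The others of the 20 were Zfp3, Oraov1, Ppil3, Dus2l, Gpatch1, Tti2, Tmem219, Asb8, Ofd1, BC002230 and 2810006K23Rik, whose SD over the libraries lay, like that of all 20, between 0.052 and 0.10 on the log2 scale. That is above the spread from counting alone for each of the 20. The 100 least variable genes had a median level of 27.7 CPM, none was in the acinar list, and their median GC content was 50.3%, near that of all genes.

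Whether a gene varied again was checked in libraries that had no part in the ranking. Of the 100 most variable genes, 95 were measured in the 4 C3H controls and 70 were in the upper 5% by the same ratio there, where 5.18% of the genes with at least 10 CPM were. In the 5 MK801 libraries 97 were measured and 77 were in the upper 5%, where 5.19% of those genes were. Outside the acinar list it was 44 of the 69 measured in C3H controls and 51 of the 71 measured in MK801 libraries. Most of the highly variable genes were thus highly variable in tumours of the other strain and in treated ones. Those outside the acinar list had a median GC content of 56.0%, against 49.8% for all genes with a mean of at least 10 CPM. The part that base composition plays in this recurrence was not tested. Of the 100 least variable genes, 19 were in the lower 5% in C3H controls (5.2% of those genes) and 20 in MK801 libraries (4.62%). These counts for the least variable genes rest on single libraries: 8, 12 and 10 were found again without C3H control 2, 3 or 4, and 10 without MK801 library 5. The acinar values show the recurrence, since Amy2a5 was at 6.90 to 21531 CPM in C3H controls and 641 to 11912 CPM in MK801 libraries. Pcsk1n and Igf2 varied there too, Pcsk1n at 28.6 to 1328 CPM in C3H controls and 8.24 to 240.2 CPM in MK801 libraries. Cartpt and Peg10 did not reach 25 CPM in any of the 9.

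Summary measures of the 7 libraries were compared pairwise. The 6 measures (insulin share, acinar share, and mean log2 scores of the leukocyte, fibroblast and mural, mitosis and granule lists) gave 15 relations, each tested by an exact two-sided permutation test over 5040 pairings. After Benjamini-Hochberg adjustment 0 of 15 passed 0.05, and 1 had an unadjusted p under it. That was the leukocyte score with the fibroblast and mural score (r = 0.825, exact permutation p = 0.0409, adjusted p = 0.490; Spearman rho = 0.464, p = 0.302), and r was -0.393 once the 2 libraries with the most distant leukocyte scores were left out, so it rests on them. Acinar share and mitosis score had r = -0.728 (exact permutation p = 0.0653, adjusted p = 0.490; rho = -0.607, p = 0.167), and r was 0.105 without the 2 farthest libraries. Insulin share and acinar share had r = 0.0640 (exact permutation p = 0.881, adjusted p = 0.881; rho = -0.0714, p = 0.906).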

How the data were processed

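PolyA RNA of 16 RIP1Tag2 tumour libraries was sequenced. The authors deposited a table of estimated counts per gene, and per the submitters' processing notes mm9, Bowtie 1.0.1 and RSEM 1.2.12 were used, with roles not given there. They also deposited a normalized table, read here as a signal, in which each library is its estimated count column times a constant; the sources used here do not say how that constant was made. Columns were matched to samples by title, and the 7 B6 controls were taken.

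Estimated counts, which need not be whole, were divided by the library total and multiplied by 1000000 (CPM). Totals of 38615267 to 43846563 set the floor of 3 counts, which covers counting error only. SD ratios used log2(CPM + 0.5) and the running median of 150 genes on each side. Counts of list genes that were highest or lowest in a library are descriptions. The same share over all genes is not given beside them. Transcript lengths and GC content came from GENCODE, as the median over the principal transcripts of a gene where any were marked. Orders per kilobase depend on that choice. Promoters and gene order came from RefSeq tables. Gene symbols turned into dates by a spreadsheet (25) were not named. Rounded counts entered edgeR 4.0.16 and DESeq2 1.42.0 (R 4.3.3) for scaling factors and dispersions as alternatives, and no test between groups was run; the rest used Python 3.11.15 with scipy 1.17.1. The SD ratio script was tested on simulated data. Named genes are the 20 of highest mean, the 20 at each end of the SD ratio, up to 4 at each end of every list and a set of islet, NMDA receptor and transporter genes. Other named genes, those of the stroma, library 1, library 5 and the imprinted loci among them, were chosen after their values were seen. The members and lists were chosen with earlier results of these data known, and 2 lists (imprinted genes, hepatocyte proteins) were added afterwards.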

Additional observations from a re-analysis of the deposited data

Results flagged for a closer look

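Of 202 gene levels and list sums examined over the 7 B6 controls, 45 had 1 library whose gap to the nearest other, on the log2 scale, took up more of the whole range than Dixon's 95% critical value allows. Chance flags about 1 in 20 groups, and the named genes were in part chosen for standing apart, so the number of flags is a description. Library 1 accounted for 36, library 5 for 6, library 2 for 2 and library 6 for 1.

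Library 1 was far above the others in the hepatocyte protein sum (7846 CPM), the sum of genes of non-beta islet cells (5533 CPM), the sum of genes of other tissues (1350.0 CPM) and the progenitor sum (1049 CPM). Single genes made up most of the last 3: Ttr, Alb and Cd24a, in that order. These genes are flagged again below, so the flags count some genes more than once. Among hormones and secreted proteins it stood out for Cartpt (5829.9 CPM), Ttr (3892 CPM), Alb (1249.8 CPM), Gpx3 (1146 CPM), Trf (589 CPM), Sct (415 CPM), Serpina1a (343 CPM), Serpina1c (77.01 CPM) and Chgb (7321 CPM). In and around the Peg10 locus it stood out for Peg10 (2571 CPM), Calcr (439 CPM), Asb4 (404 CPM), Casd1 (149.7 CPM), Sgce (91.1 CPM) and Pdk4 (8.65 CPM). The transcription factors were Tfap2b (166 CPM), Nhlh2 (92.2 CPM), Pou3f4 (44.95 CPM), Neurod6 (22.8 CPM) and Sox9 (3.41 CPM), and 5 further genes were Hk1 (71.1 CPM), Mest (57.8 CPM), Cd24a (867 CPM), Grin2a (2.70 CPM) and Nos1 (1.92 CPM).

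The same library was far below the others in the insulin sum (12345 CPM), the glucose sensing sum (2854 CPM) and the ductal sum (600.1 CPM). It was also far below for Ins2 (8916 CPM), Iapp (3364 CPM), G6pc2 (349 CPM) and Mbp (40.8 CPM).

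Library 5 was far above the others for Emilin1 (195 CPM), Shank1 (2.71 CPM) and Grin2d (1.47 CPM), and far below for the glial sum (161.7 CPM), Rims2 (37.8 CPM) and Pon2 (11.9 CPM). Library 2 was far above for Cd79a (5.90 CPM) and Neurog3 (2.23 CPM), and library 6 for Bet1 (94.6 CPM).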

How the results depend on the processing

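No paired analysis was possible because 1 group was described and its replicate numbers pair it with nothing. Of 329 alternatives run on counts, shares and relations, 309 left the result within its bounds. The bounds were wide: keeping 70 of the 100 most variable genes counted as unchanged, while keeping 61 of the 100 least variable did not. Of the 329, 150 were alternatives of the 15 relations, none of which passed the threshold in the main run. All 150 stayed above it, with adjusted p between 0.104 and 0.975. The 309 are therefore no measure of how firm the results are. The choice of the 100 least variable genes depended most on processing: 47 remained with TMM scaling, 48 with DESeq2 size factors, 54 in the authors' normalized table, 61 with insulin and acinar genes left out of the total, 51 by edgeR dispersions, 26 among genes of at least 50 CPM and 16 by median absolute deviation. Leaving out 1 library kept 45 to 81 of them. Of the 100 most variable genes, 50 remained by median absolute deviation, and leaving out 1 library kept 70 to 88. With a mean under 0.1 CPM as the floor, 54 in place of 34 neural genes were at it. With 10% in place of 5% as the extreme class, 37% of the least variable genes were found again in C3H controls and 31% in MK801 libraries. Leaving out 1 library there, an alternative chosen after seeing the data, gave 8% to 18% in C3H controls and 10% to 18% in MK801 libraries. The cause of these shifts was not tested, apart from the 50 CPM minimum, which removes genes.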
